A study of Mus musculus with 15 samples.

Results

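Autophagy moves cytoplasmic material to the lysosome inside a double membrane, and 10 genes of its receptor and membrane-tag machinery were followed here, out of 78317 genes counted. They were chosen by name, as autophagy genes known from other systems to respond to the transcription factors ATF4 and CHOP, not by a cutoff on expression. Earlier results of these data were known at that time. The 10 were 2 cargo receptors (Sqstm1 and Nbr1), 2 LC3 genes (Map1lc3a and Map1lc3b), 3 GABARAP genes (Gabarap, Gabarapl1 and Gabarapl2), and 3 genes of earlier steps (Atg12, Becn1 and Wipi1). All 10 were matched to 1 gene identifier each and all 10 passed the filter on low counts.

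As background, a growing autophagosome is coated with small ubiquitin-like proteins of the LC3 and GABARAP subfamilies, together the mammalian ATG8 family, which are attached to the lipid phosphatidylethanolamine by a conjugation machinery that includes ATG12. Cargo receptors such as p62, the product of Sqstm1, bind ubiquitinated cargo with one domain and ATG8 proteins with another, and are themselves degraded with the cargo, so the receptor protein must be made anew during sustained autophagy. In cells starved of amino acids or under endoplasmic reticulum stress, ATF4, alone or with CHOP, is known to raise transcription of several of these genes, while the heart depends on autophagy to clear damaged mitochondria and protein aggregates.

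Polyadenylated or ribosomal-RNA-depleted RNA (the labels conflict, as given below) was sequenced from ventricles of C57BL/6 mouse embryos at embryonic day 11.5. 2 floxed Atf4 alleles were each combined with Xmlc2-Cre, a transgene that deletes in cardiomyocytes, so its design leaves Atf4 intact in other cells of the tissue (endocardium, epicardium, mesenchyme, blood), which was not measured by cell type here. In the CDS line the loxP sites enclose exons 2 and 3 and the polyadenylation signal is kept, and in the PAS line they enclose that signal. There were 4 libraries labelled CDS knockout, 4 CDS control, 4 labelled PAS knockout and 3 PAS control. All carry batch label 1, no treatment was given, and the labels say of the controls' genotype only that they are controls. The lines are separate sets of libraries, so a difference between their controls cannot be told apart from a difference between the sets. In whole ventricle, fewer cells of a type and less RNA per cell cannot be told apart.

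Atf4 (chromosome 15, 80139385 to 80141742, GRCm39) was read first as a check of the labels, in CPM, a count divided by its library's scaled total. CDS knockouts 1 to 4 had 39.5, 48.1, 45.3 and 45 CPM, and CDS controls 1 to 4 had 114, 112, 116 and 115 CPM. In the libraries labelled PAS knockout it lay at 303, 292, 288 and 259 CPM, against 98.8, 92.1 and 99.9 CPM in the PAS controls. Atf4 counts thus fell to 0.389-fold in the CDS line (log2 difference -1.36 ± 0.05 SE, edgeR adjusted p = 1.25e-13) and rose 2.94-fold in the PAS line (1.56 ± 0.06, adjusted p = 4.25e-14). Counts were summed over the whole annotated gene, including the exons that the CDS deletion removes. The CDS fall therefore does not measure how much transcript was made. In the PAS line the counts rose rather than fell, so those libraries are called by their label throughout. Whether the message counted there was intact was not tested, and ATF4 protein was not measured. The extraction text names cultured cortical neurons, whereas 8 cardiomyocyte markers summed to between 26808 and 32435 CPM in every library and 5 neuron markers to between 28 and 46.5 CPM.

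Library totals were between 30376847 and 46472141 counts for the CDS line and between 22623499 and 29315724 for the PAS line, so that each of the 10 genes had between 400 and 7611 counts per library. Erythroid messages varied widely within groups, with 7 markers summing to 1628 to 4419 CPM in CDS knockouts, 1855 to 4046 in CDS controls, 1179 to 2339 in the libraries labelled PAS knockout and 1329 to 3574 in PAS controls. Their log2 differences were negative for 7 of 7 in the PAS line (median -0.55) and for 5 of 7 in the CDS line (median -0.10). In each line 0 of the 7 had an unadjusted p under 0.05 in edgeR. Choroid plexus and liver markers, 6 in all, summed to 38, 42.6, 164 and 237 CPM in CDS knockouts 1 to 4, to 33.7 to 66.7 CPM in CDS controls and to 15.2 to 27.7 CPM in the PAS line. Of these, Ttr was at 11.2 to 154 CPM in every CDS-line library and at 0.263 to 0.742 CPM in every PAS-line library, so it moves with each comparison between the lines. Enpp2 went the same way, at 5.87 to 64.1 CPM in the CDS line and 0.719 to 1.49 CPM in the PAS line. Trf did not, at 14.8 to 18 CPM and 13.3 to 25.5 CPM. The defining liver marker Alb was at or near 0 throughout (at most 0.0638 CPM), and Afp and Apoa1 reached at most 1.63 and 0.355 CPM. In the CDS line 8 endothelial and endocardial markers summed to 1634 to 1737 CPM in knockouts and 1774 to 1842 CPM in controls, without overlap, and 8 cardiomyocyte markers to 26808 to 30430 and 29515 to 32435 CPM. By gene, 7 of 8 differences were negative in each of these lists, with 4 and 3 at an unadjusted p under 0.05 and 0 called by edgeR. Over all genes in this comparison, 2.62% had an unadjusted p under 0.05 and 0.0543% were called. Single genes whose groups did not overlap made up 2.8% of all. The part of these messages in the results below was not tested beyond the fits with an erythroid term and without CDS knockouts 3 and 4.

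The sequence around the start sites was read for motifs of stress-regulated factors. RefSeq windows on GRCm38.p6, 250 bases before to 50 after a start site, were found for 7 of the 10 genes (Sqstm1, Nbr1, Map1lc3b, Gabarap, Gabarapl1, Gabarapl2 and Wipi1), with 8 windows in all. They are shown for the receptor Sqstm1 and for Map1lc3b, both often described as ATF4 or CHOP responsive, and for Gabarapl2, the gene whose knockout and control libraries separated in the PAS line. Each is written 5′ to 3′ on the strand of the gene, and capitals mark matches to any of 5 motifs searched on both strands.
Sqstm1 (chr11:50210771-50211070, minus strand): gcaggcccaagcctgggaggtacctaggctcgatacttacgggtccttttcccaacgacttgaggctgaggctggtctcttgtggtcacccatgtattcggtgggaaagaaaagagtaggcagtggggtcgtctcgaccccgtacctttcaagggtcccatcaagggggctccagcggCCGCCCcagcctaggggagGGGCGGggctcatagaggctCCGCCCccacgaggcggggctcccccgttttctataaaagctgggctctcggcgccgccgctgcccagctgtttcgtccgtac
Map1lc3b (chr8:121590188-121590487, plus strand): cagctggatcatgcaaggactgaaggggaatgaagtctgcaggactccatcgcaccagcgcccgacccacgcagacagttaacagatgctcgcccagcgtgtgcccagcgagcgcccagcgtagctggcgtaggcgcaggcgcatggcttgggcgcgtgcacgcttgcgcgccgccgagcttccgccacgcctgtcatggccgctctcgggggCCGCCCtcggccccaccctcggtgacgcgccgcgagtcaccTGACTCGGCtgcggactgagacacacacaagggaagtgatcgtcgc
Gabarapl2 (chr8:111940453-111940752, plus strand): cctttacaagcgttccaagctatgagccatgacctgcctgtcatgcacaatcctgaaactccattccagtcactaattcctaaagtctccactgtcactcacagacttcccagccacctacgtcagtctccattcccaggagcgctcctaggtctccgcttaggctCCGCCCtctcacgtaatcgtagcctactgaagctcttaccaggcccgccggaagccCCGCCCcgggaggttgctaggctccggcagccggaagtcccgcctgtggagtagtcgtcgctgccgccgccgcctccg
The 5 motifs were TGATGNAA, the core of the C/EBP-ATF response element; CACGTG, the core of the lysosomal CLEAR element; TGACNNNGC, the antioxidant response core; GGGCGG, the GC box; and CCAAT. TGATGNAA was in the windows of 0 of the 7 genes and in 3.97% of all 32851 windows of this length, and CACGTG in 0 of the 7 and in 7.15% of all. The antioxidant core was in 1 of the 7, Map1lc3b, where it begins at base 5 after the start, and in 12.4% of all windows. In the Map1lc3b sequence above, it is the longest run of capitals. GC boxes were in 6 of the 7 genes, with 3 in Sqstm1, 2 in Gabarapl2 and 9 in Wipi1, against 35.7% of all windows. CCAAT was in 1 of the 7, Nbr1, and in 37.4% of all windows. A match is only a run of letters, and these counts say nothing of sites outside the windows.

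None of the 10 genes passed the test for a change in either line. In the CDS line, where Atf4 counts fell, the quasi-likelihood test of edgeR, with p adjusted by Benjamini-Hochberg, called 0 of the 10, against 11 of 20269 genes tested (0.0543%). In the PAS line it called 0 of the 10, against 2 of 20269 (0.00987%). With so few genes called anywhere, a count of 0 does not set the 10 apart from other genes. What the data do give are bounds: the 95% intervals of the 10 CDS folds all lay within 0.875 to 1.11, and those of the 10 PAS folds within 0.882 to 1.41. In simulated counts for the CDS comparison with 200 genes changed, 73.1% of those changed 1.25-fold and 98.5% of those changed 1.5-fold were called. The simulated spread followed the trend with abundance, not each gene's own spread. With only 11 genes called in the data, the cutoff on p was stricter there, so these shares do not give the power for the 10. At an unadjusted p under 0.05 the CDS line held 0 of the 10, against 2.62% of all genes, and the PAS line 1, Gabarapl2, against 5.24%. DESeq2 and limma-voom also called 0 of the 10 in each line.

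**Figure D1:**
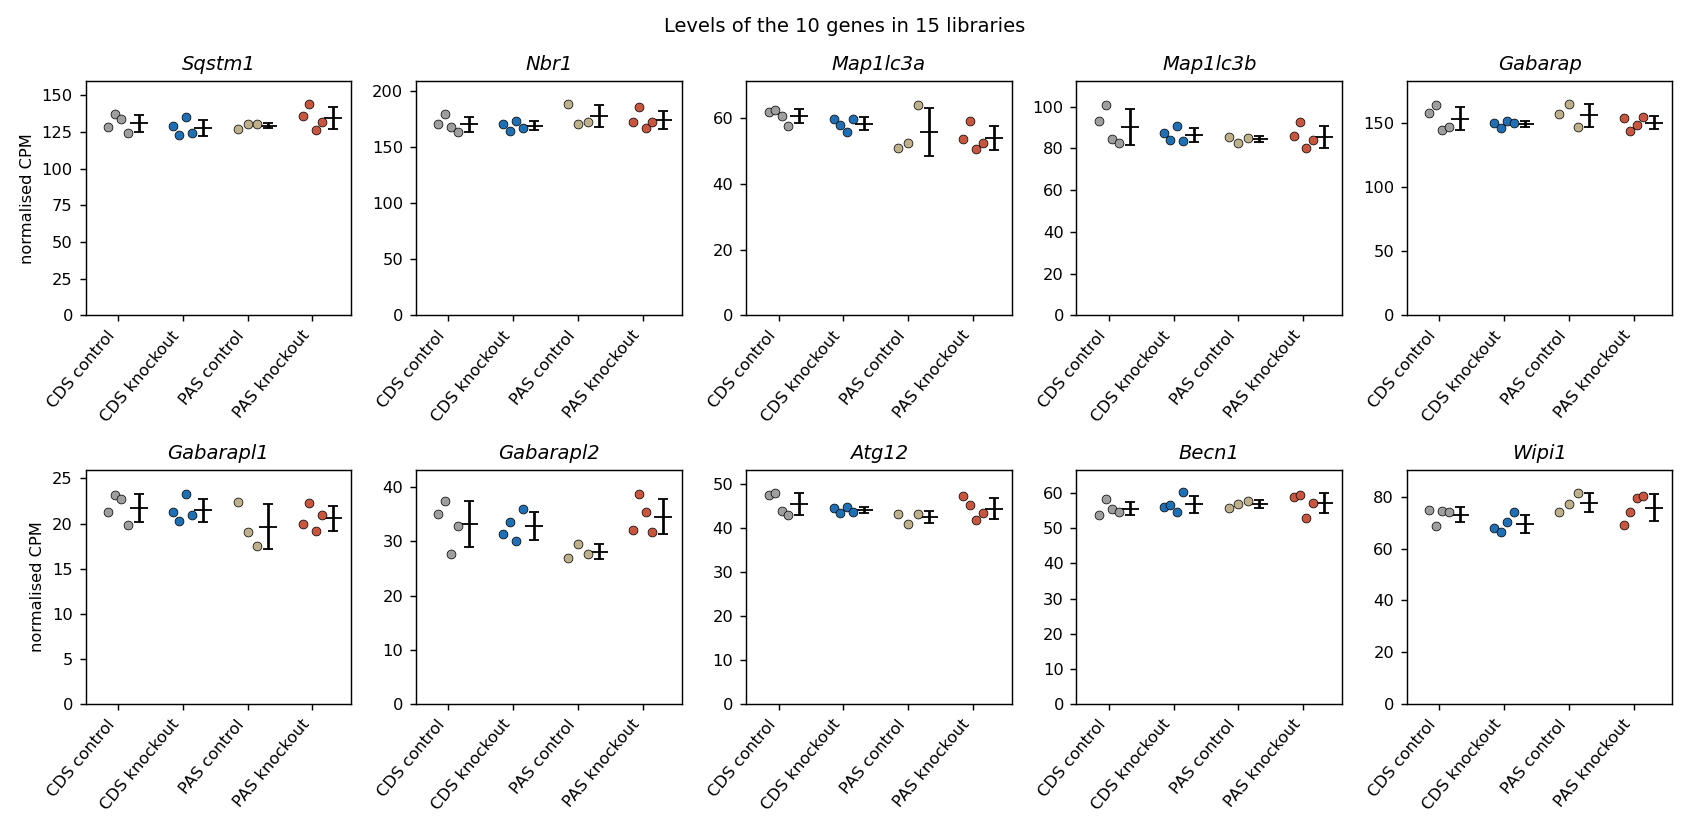
Level of each of the 10 genes in each of the 15 libraries, in normalised CPM on axes that start at 0, with 1 point per library and the group mean ± SD beside the points. Within each line, knockouts and controls overlap in every panel except Gabarapl2, where the 4 libraries labelled PAS knockout (31.8 to 38.7 CPM) lie above the 3 PAS controls (27 to 29.6 CPM).

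Sqstm1 codes for p62, the receptor that links ubiquitinated cargo to the autophagosome and also frees NRF2 from KEAP1. The gene lies on chromosome 11 (50090193 to 50101654, minus strand, GRCm39, as the coordinates that follow). It stood at 129, 123, 135 and 124 CPM in the CDS knockout libraries and 128, 137, 134 and 124 CPM in their controls. In the PAS line it stood at 136, 144, 126 and 132 CPM in the libraries labelled knockout and 127, 130 and 130 CPM in the controls. The groups overlapped in both lines, with the highest value in PAS knockout 2. The log2 difference was -0.03 ± 0.04 (SE) in the CDS line (adjusted p = 1) and 0.06 ± 0.05 in the PAS line (adjusted p = 0.986). The 95% intervals allowed at most a 1.04-fold and a 1.12-fold rise, respectively. Exons of Mrnip on the opposite strand cover 17.3% of the Sqstm1 exons and no strand option was set in counting. Mrnip had 1653 counts over all libraries against 62108 for Sqstm1. Whether reads on shared exons were counted for either gene was not tested, so these totals do not measure the effect of the overlap.

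Nbr1 (chromosome 11, 101442975 to 101472777, plus strand) codes for another ubiquitin-binding receptor, older in evolution than p62 and able to bind it. Its levels were 171, 165, 174 and 167 CPM in the CDS knockout libraries and 171, 180, 168 and 164 CPM in their controls. They were 173, 186, 167 and 173 CPM in the libraries labelled PAS knockout and 189, 171 and 173 CPM in PAS controls. Knockout and control ranges lay over each other in both lines. Differences of -0.01 ± 0.04 and -0.02 ± 0.05 on the log2 scale did not pass the test (adjusted p = 1 and 0.999).

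Of the LC3 genes, which code for the tags that help the membrane grow and that bind receptors, Map1lc3a (chromosome 2, 155118217 to 155119993, plus strand) was counted at 59.7, 58, 55.8 and 59.8 CPM in the CDS knockout libraries and 61.9, 62.5, 60.5 and 57.5 CPM in their controls. The libraries labelled PAS knockout gave 53.6, 59.2, 50.7 and 52.5 CPM and the PAS controls 50.8, 52.3 and 64 CPM. CDS knockouts were on average lower but overlapped the controls, and PAS control 3 alone was the highest of all 15 libraries. Neither difference passed the test (CDS -0.05 ± 0.06, adjusted p = 1; PAS -0.04 ± 0.07, adjusted p = 0.996). Without PAS control 3 the PAS difference changed sign, to 0.07.

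Map1lc3b (chromosome 8, 122317100 to 122325499, plus strand), the source of the LC3B protein whose lipidated form is the usual assay of autophagosome number, stood at 87.3, 84.2, 90.6 and 83.7 CPM in the CDS knockout libraries and 92.9, 101, 84.3 and 82.4 CPM in their controls. In the PAS line the values were 85.9, 92.6, 80 and 84 CPM under the knockout label and 85.5, 82.7 and 84.8 CPM in controls. CDS control 2 was the highest library and the groups overlapped in both lines. Its log2 differences, -0.06 ± 0.05 and 0.02 ± 0.06, had adjusted p = 1 and 0.999. Without CDS control 2 the CDS difference was 0.00. Zcchc14 on the opposite strand shares 58 bases with it, 0.772% of its exons.

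The GABARAP genes code for tags that act later, in closure of the membrane and its fusion with lysosomes. Gabarap (chromosome 11, 69881969 to 69885777, plus strand) gave 150, 146, 152 and 150 CPM in the CDS knockout libraries and 158, 164, 145 and 147 CPM in their controls. It gave 154, 144, 149 and 155 CPM in the libraries labelled PAS knockout and 157, 165 and 147 CPM in PAS controls. The CDS knockouts lay inside the range of their controls. The differences, -0.04 ± 0.04 and -0.05 ± 0.05, did not pass the test (adjusted p = 1 and 0.988).

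Gabarapl1 (chromosome 6, 129510123 to 129519309, plus strand), a close relative of Gabarap that is induced by FOXO factors in other tissues, was the lowest of the 10 by counts. It stood at 21.3, 20.3, 23.3 and 20.9 CPM in the CDS knockout libraries and 21.3, 23.2, 22.7 and 19.8 CPM in their controls. The PAS line had 19.9, 22.3, 19.2 and 20.9 CPM under the knockout label and 22.4, 19.1 and 17.5 CPM in controls, which spread more widely (CV 12.7%) than the CDS knockouts (6.17%). The groups overlapped, and differences of -0.02 ± 0.07 and 0.06 ± 0.08 had adjusted p = 1 and 0.992. An opposite-strand gene, 1700101I11Rik, covers 37.2% of its exons and had 151 counts in all against 10026. The effect of this overlap was not tested.

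Gabarapl2 (chromosome 8, 112667335 to 112680244, plus strand), which codes for the protein GATE-16, was the only one of the 10 whose knockout and control libraries separated within a line. Levels were 31.4, 33.6, 30.1 and 36 CPM in the CDS knockout libraries and 35.1, 37.5, 27.6 and 32.8 CPM in their controls, with full overlap. They were 32.2, 38.7, 35.4 and 31.8 CPM in the libraries labelled PAS knockout and 27, 29.6 and 27.7 CPM in PAS controls. All 4 of the former lay above all 3 controls, a separation found in 1 of the 10 genes and, in the same direction, in 2.21% of all genes tested (4.59% in either direction). The mean was 34.5 ± 3.22 CPM (SD, n = 4) against 28.1 ± 1.35 CPM (SD, n = 3). The log2 difference was 0.30 ± 0.09 (95% interval 0.10 to 0.50), a 1.23-fold higher level, with unadjusted p = 0.00517 and edgeR adjusted p = 0.934. It therefore did not pass the test, and 5.24% of all genes had an unadjusted p under 0.05 in this comparison. In the CDS line the difference was -0.02 ± 0.08 (adjusted p = 1).

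Over the 4 groups, the PAS controls had the lowest Gabarapl2 mean, and the means of the other groups lay between 32.8 ± 2.59 CPM in CDS knockouts and 34.5 ± 3.22 CPM (SD, n = 4 each). Against the CDS controls (33.3 ± 4.21 CPM, SD, n = 4) the PAS controls differed by -0.24 ± 0.09 on the log2 scale (unadjusted p = 0.0176, adjusted p = 0.389). This comparison and the PAS knockout comparison share the 3 PAS controls and are not independent. The difference of the 2 knockout changes, PAS minus CDS, was 0.32 ± 0.12 (unadjusted p = 0.0205, adjusted p = 0.995). Leaving out each library in turn kept the PAS difference between 0.235 and 0.338, and adding an erythroid term gave 0.31 (adjusted p = 0.932). With no filter on low counts the value was 0.305 and its adjusted p fell to 0.0178; under the other alternatives the adjusted p lay between 0.586 and 1. The difference of the controls was likewise called only there (-0.26, adjusted p = 0.0129, against 0.114 to 0.685 under the others).

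Atg12 (chromosome 18, 46863211 to 46874647, minus strand) codes for the ubiquitin-like protein that is joined to ATG5 to form the ligase for ATG8 proteins. It gave 44.5, 43.4, 44.8 and 43.5 CPM in the CDS knockout libraries and 47.4, 47.8, 43.8 and 42.9 CPM in their controls. It gave 47.2, 45.1, 41.7 and 43.3 CPM under the PAS knockout label and 43.2, 40.8 and 43.1 CPM in PAS controls. CDS controls 1 and 2 and PAS knockout 1 were the 3 highest libraries, and the groups overlapped. Differences of -0.04 ± 0.05 and 0.07 ± 0.05 did not pass the test (adjusted p = 1 and 0.986).

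Becn1 (chromosome 11, 101176778 to 101193112, minus strand) codes for Beclin 1, the subunit that activates the class III PI3-kinase at sites where autophagosomes start. Values were 55.9, 56.6, 54.6 and 60.2 CPM in the CDS knockout libraries and 53.8, 58.2, 55.4 and 54.7 CPM in their controls. The libraries labelled PAS knockout had 58.8, 59.4, 53 and 57.1 CPM and the PAS controls 55.7, 57 and 57.8 CPM. It was the only one of the 10 with a positive CDS difference, 0.03 ± 0.04 (adjusted p = 1), and its PAS difference was 0.01 ± 0.05 (adjusted p = 0.999). The groups overlapped in both lines. Opposite-strand Cntd1 covers 43.9% of its exons, with 323 counts against 26890, and the effect of this overlap was not tested.

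Wipi1 (chromosome 11, 109464157 to 109502793, minus strand) codes for a propeller protein that reads the phosphatidylinositol 3-phosphate made by that kinase. It lay at 67.8, 66.3, 70.3 and 74 CPM in the CDS knockout libraries and 75.1, 68.9, 74.7 and 74 CPM in their controls. Under the PAS knockout label it lay at 69.2, 74.2, 79.5 and 80.5 CPM, and in PAS controls at 74.3, 77.4 and 81.5 CPM. The 2 lowest of the 15 libraries were CDS knockouts 1 and 2, but CDS knockout 4 and CDS control 4 were both at 74 CPM. The CDS difference, -0.07 ± 0.05 (unadjusted p = 0.146, adjusted p = 1), had the smallest unadjusted p of the 10 in that line. The PAS difference was -0.03 ± 0.05 (adjusted p = 0.996).

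**Figure D2:**
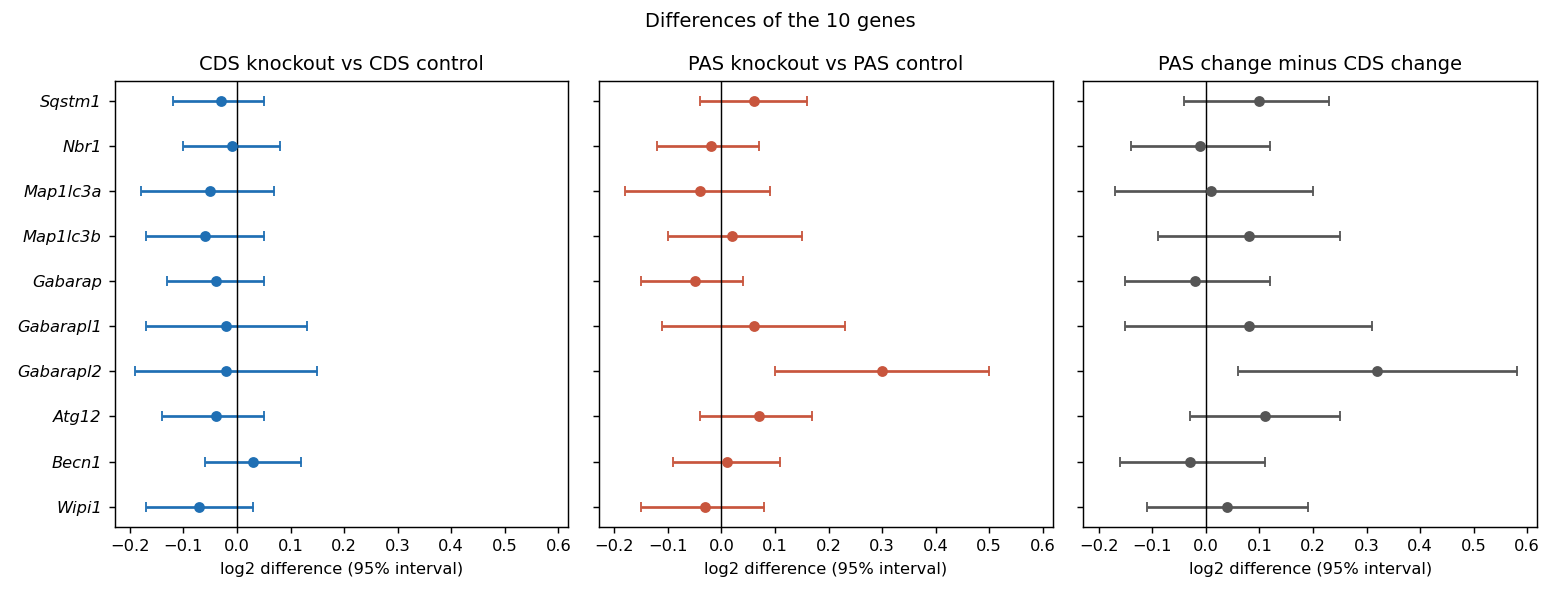
Log2 differences of the 10 genes with 95% intervals from the edgeR fit, for CDS knockout minus control, PAS knockout minus control, and the PAS difference minus the CDS difference, with a line at 0. Only the Gabarapl2 intervals in the PAS and PAS-minus-CDS panels (0.10 to 0.50 and 0.06 to 0.58) leave out 0, and neither passed the adjusted test.

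Taken by sign, 9 of the 10 CDS differences were negative, with a median of -0.04 against -0.001 for all genes tested. In the PAS line 4 were negative and 6 positive, with a median of 0.02 against -0.001. The CDS split rested on 1 library: without CDS control 2 it was 5 negative and 5 positive, with a median of -0.002. CDS control 2 was the highest of its group for 9 of the 10 genes, on average 0.078 log2 above its group, and also had the highest erythroid sum of the CDS controls (4046 CPM). In the PAS line, PAS knockout 2 was the highest of its group for 7 of the 10 and PAS knockout 3 the lowest for 7. Without PAS knockout 2 the PAS signs were 6 negative and 4 positive. The median deviation of all genes in these 3 libraries was 0.002, -0.007 and 0.002 on the log2 scale. With an erythroid term in the fit the CDS split was 9 negative and 1 positive (median -0.029). CDS knockout 3, with the highest erythroid sum (4419 CPM), deviated by 0.013 on average over the 10. Its counts over all genes differed most from its group (chi-square per degree of freedom 50.3 to 62.6, at most 13.8 in other replicate pairs). Without it the CDS split was 8 negative and 2 positive (median -0.049). Beyond the fit with an erythroid term, the part of erythroid messages in the split was not tested. Differences of endothelial and cardiomyocyte markers were mostly negative in the CDS line too, as given above, and their part in the split was not tested.

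The difference between the knockout changes of the lines was called for 0 of the 10 genes, against 1 of 20269 (0.00493%), which was Atf4 (2.92 ± 0.08 on the log2 scale, adjusted p = 3.88e-17). The 95% intervals of the 10 ratios of folds lay within 0.887 to 1.49. At an unadjusted p under 0.05 it held 1 of the 10, again Gabarapl2, against 4.16% of all genes, and DESeq2 and limma-voom called 0. Atf4 counts, which include the sequence deleted in the CDS line, moved in opposite directions in the lines, with a 7.56-fold gap between their changes. These counts do not show how much intact Atf4 message was made in either line, and ATF4 protein was not measured. They therefore give no difference in ATF4 activity against which the 10 genes could be read. Between the controls of the lines, where 29 of 20269 genes were called (0.143%), 0 of the 10 were called and the folds' intervals lay within 0.738 to 1.15. Line and set of libraries cannot be told apart in that comparison. At an unadjusted p under 0.05 the controls held 1 of the 10, Gabarapl2, against 9.6% of all genes, and DESeq2 and limma-voom called 0. Groups of controls did not overlap for 0 of the 10, against 9.46% of all genes. In the CDS knockout comparison, too, 0 of the 10 had groups that did not overlap, against 2.8% of all genes.

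Compared per length of exon (RPKM, normalised CPM per kilobase), most of the 10 genes kept their order from library to library. Over the 15 libraries Gabarap was the most abundant at 82.5 ± 3.57 RPKM (SD, n = 15), above 97.9% of genes tested. Map1lc3a followed at 48.5 ± 3.71, Sqstm1 at 39 ± 1.68 and Nbr1 at 25.2 ± 1.04 RPKM, each above the next in all 15 libraries with no overlap of ranges. Wipi1 (16.7 ± 1.05 RPKM), Gabarapl2 (14 ± 1.57), Map1lc3b (11.5 ± 0.709) and Gabarapl1 (10.4 ± 0.827) came next, and the ranges of neighbours among these 4 overlapped. Wipi1 was above Gabarapl2, and Map1lc3b above Gabarapl1, in 14 of the 15 libraries. Becn1 (8 ± 0.296 RPKM) and Atg12 (5.73 ± 0.262) were the lowest, the latter still above 64.7% of genes tested. These ranks use the length of all annotated exons, which understates a message wherever part of that length is seldom used. The same would hold where reads on exons shared with another gene were left uncounted, which was not tested.

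Within the ATG8 family, the 5 genes together gave 167 ± 2.28 RPKM in CDS knockouts, 172 ± 9.54 in CDS controls, 164 ± 3.82 in the libraries labelled PAS knockout and 165 ± 2.42 in PAS controls (SD, n = 4, 4, 4 and 3). Gabarap made up 49.5 ± 1.93% of that sum over all 15 libraries and Map1lc3a 29 ± 1.79%. Gabarapl2 made up 8.36 ± 0.851%, Map1lc3b 6.91 ± 0.238% and Gabarapl1 6.23 ± 0.459%. Per length, Map1lc3a was thus the main LC3 message in every library. That order rests on annotated exon lengths of 1181 bases for Map1lc3a and 7517 for Map1lc3b, since without division by length Map1lc3b had more counts (86.8 ± 5.33 against 57.3 ± 4.39 CPM, SD, n = 15). The Gabarapl2 share was 9.07 ± 0.788% in the libraries labelled PAS knockout (8.35 to 9.89%) and 7.32 ± 0.267% in PAS controls (7.15 to 7.63%), the same separation as in its level. In the CDS line its share was 8.46 ± 0.643% in knockouts and 8.31 ± 0.727% in controls, with overlap.

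**Figure D3:**
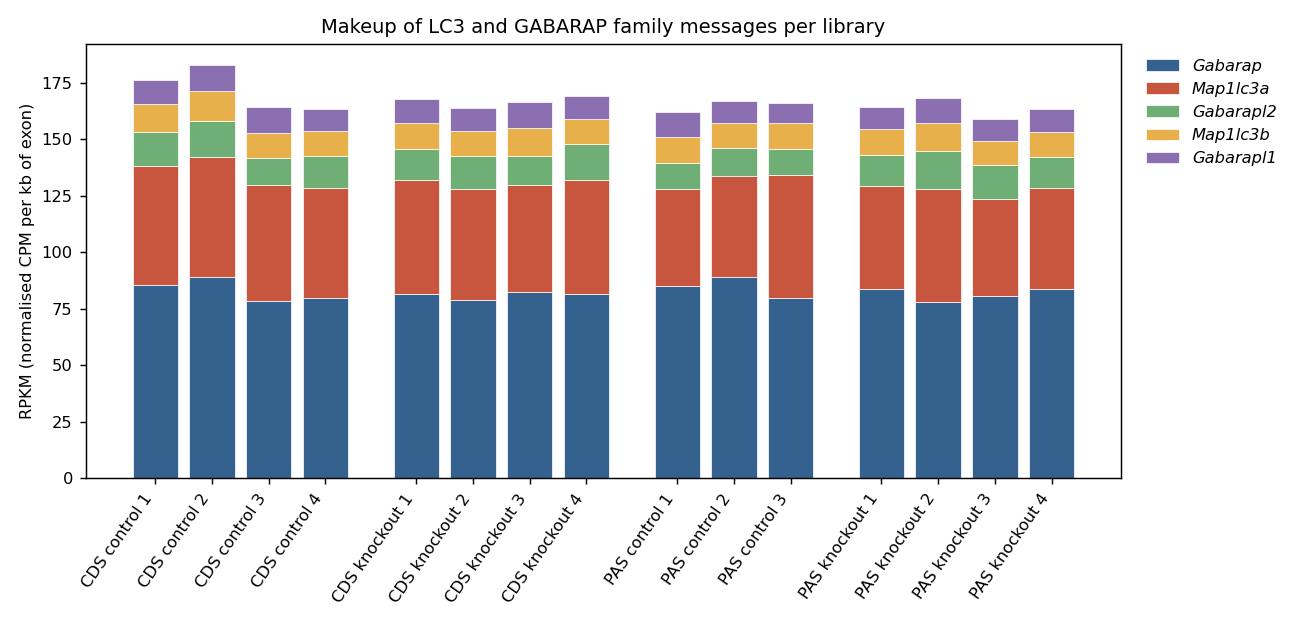
Stacked levels of the 5 LC3 and GABARAP family genes in each library, in RPKM, with 1 bar per library in 4 blocks by group. Gabarap and Map1lc3a fill most of every bar, and the totals run from 159 to 183 RPKM.

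The genes also differed in their spread over the 15 libraries. No group means were taken out, so differences between groups are part of that spread. Becn1 had an SD of 0.0534 in log2 CPM, smaller than in most genes of similar level (14.8% of the 1626 genes within 1.25-fold of its mean CPM had a lower SD). Gabarapl2 had the widest spread of the 10, 0.163, with 95.4% of 1685 similar genes lower, and its lower level in the PAS controls is part of it. Map1lc3a had 0.112, with 87.3% of 1618 lower. Gabarapl1 had 0.117, less unusual for its low level (68.9% of 1474 lower). Sqstm1 and Gabarap sat near the middle (45.3% and 45.6%). Biological coefficients of variation from the fit, which has a mean per group, were 4.4% for Becn1 to 8.12% for Gabarapl2.

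By closeness of profile over the 15 libraries, each centred on its mean, the 3 nearest of 9864 genes to Sqstm1 were Il6st (root mean square log2 difference 0.0377), Zfp866 (0.0378) and Npat (0.0383). The nearest to Map1lc3b were Pttg1ip (0.0342), Slc35b2 (0.044) and Cox6b1 (0.0461). None of these 6 is among the autophagy genes listed here. Nearness is given here as a description, with no test.

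Beyond the 10, 67 other autophagy genes in 7 lists were read in the same fit, and 0 of the 67 were called in the CDS line, the PAS line, the difference between them or between the controls. Their medians were -0.01 in the CDS line (28 positive, 39 negative) and -0.00 in the PAS line (33 positive, 34 negative), against -0.001 for all genes in both. At an unadjusted p under 0.05 the counts were 1 and 2 of 67, against 2.62% and 5.24% of all genes. The 1 in the CDS line was Lamp1 (-0.09 ± 0.04, adjusted p = 1), a major glycoprotein of the lysosome membrane and, at 118 RPKM, the most abundant of the lysosome list. The 2 in the PAS line were the mitophagy receptors Optn (-0.15 ± 0.07, adjusted p = 0.934) and Fundc1 (0.16 ± 0.08, adjusted p = 0.951), chosen for mention after their values were seen. As with Gabarapl2, both differed the other way between the controls (0.15 and -0.17), a comparison that shares the PAS controls.

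The most abundant gene per length of each other list was also read. Among receptors it was the reticulon Rtn3, a receptor for tubular endoplasmic reticulum, at 45.9 RPKM, with 228 ± 2.27 CPM in the CDS knockout libraries against 239 ± 5.8 CPM (SD, n = 4 each) in their controls, and a log2 difference of -0.07 ± 0.03 (adjusted p = 1). Rab7, the small GTPase of late endosomes that brings autophagosomes to lysosomes, had 69.6 RPKM and differences of -0.05 ± 0.04 (CDS) and 0.01 ± 0.04 (PAS). The other leaders were the conjugating enzyme Atg3 (-0.01 and 0.01), the ULK1 complex subunit Atg101 (0.00 and -0.03), the class III PI3-kinase inhibitor Rubcn (-0.06 and 0.02) and the Wipi1 relative Wdr45b (0.05 and 0.04). None of these passed the test in either line. By list, positive CDS differences numbered 7 of 16 for the other receptors, 5 of 10 for conjugation, 4 of 5 for the ULK1 complex, 1 of 7 for the class III PI3-kinase complex, 6 of 10 for PI3P effectors and lipid supply, 0 of 8 for fusion and 5 of 11 for the lysosome. In the PAS line the same lists, in that order, had 5 of 16, 6 of 10, 3 of 5, 3 of 7, 7 of 10, 5 of 8 and 4 of 11 positive. The CDS splits were not recomputed without CDS control 2.

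**Figure D4:**
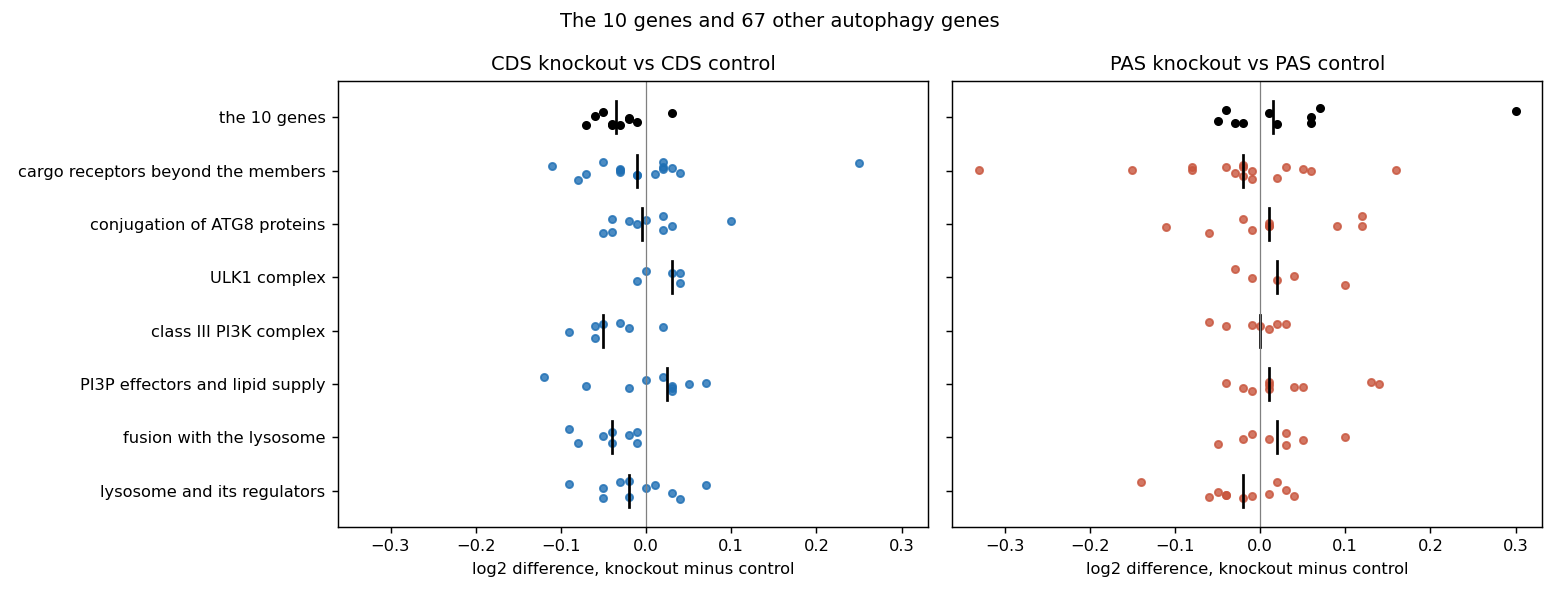
Log2 difference of each gene, knockout minus control, in the CDS line (left) and the PAS line (right), for the 10 genes and 7 lists holding 67 other autophagy genes, with 1 point per gene and a bar at each list's median. List medians lie close to 0 in both lines, and Gabarapl2 is the point at 0.30 in the top row of the right panel.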

How the data were processed

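RNA was sequenced in 15 libraries of embryonic mouse heart in 4 groups. The values are whole-number fragment counts for each gene, deposited unnormalised and made by the authors with featureCounts 2.1.1 over exons of GENCODE release 37 (GRCm39), per the file headers, which set no strand option. The submitters' processing notes list HISAT2 2.2.1, STAR 2.7.11b, DESeq2, fastp and FastQC, with both GRCm38 and GRCm39 and no roles. The design text names a stranded poly(A) kit and the extraction text ribosomal RNA depletion. The sources also conflict on the tissue: the sample titles say heart, the design text ventricle and the extraction text cultured cortical neurons. It was taken here as ventricle.

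Names came from GENCODE release 21 by identifier (51487 of 78317 identifiers, 98.85% of counts). Genes were filtered with filterByExpr (minimum count 10, which left 20269), scaled by trimmed mean of M values and fitted by edgeR 4.0.16's robust quasi-likelihood method, with a mean per group and 11 residual degrees of freedom. A gene was called where its p, adjusted by Benjamini-Hochberg over all genes tested, was under 0.05. SEs derive from the F statistic. Analyses used R 4.3.3 and Python 3.11.15, and the test was tried on simulated counts. Replicates are biological per the design text, and counts of the 21 replicate pairs differed beyond sampling noise (chi-square per degree of freedom 3.41 to 62.6).

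All 10 genes are named, with Atf4. From the pathway lists every called gene is named, else the most abundant per length, and for Sqstm1 and Map1lc3b the 3 nearest profiles among genes at 10 CPM or more. The genes, lists and tests were chosen with earlier results of these data known. Alternatives were DESeq2 size factors, no filter, DESeq2 1.42.0, limma-voom (limma 3.58.1), the compared groups alone, a replicate block, an erythroid covariate, leaving out each library, and leaving out CDS knockouts 3 and 4.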

Additional observations from a re-analysis of the deposited data

Results flagged for a closer look

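The change of Atf4 differed between the lines: its log2 difference in the PAS line minus that in the CDS line was 2.92 ± 0.08 (SE, edgeR adjusted p = 3.88e-17), with all 4 CDS knockouts below their controls and all 4 libraries labelled PAS knockout above theirs. As given above, these counts do not measure intact Atf4 message or ATF4 protein in either line. For none of the 10 autophagy genes did the difference between the lines pass the test, the nearest being Gabarapl2 at 0.32 ± 0.12 (adjusted p = 0.995). No library of the groups of 4 stood apart from its group for any of these genes by Dixon's criterion (gap over range above 0.829), over 33 values tested, of which chance alone is set to pick 5%.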

How the results depend on the processing

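No setting moved any of the 10 genes past the threshold in the CDS line or in the difference between the lines. With no filter on low counts (49584 genes) Gabarapl2 was called in the PAS line and between the controls, so 1 of the 10 was called in each, and the cause was not tested. There the genes called over the whole table were 31 (CDS), 7 (PAS), 3 (difference between the lines) and 201 (controls). DESeq2 called 20, 7, 2 and 101 genes. limma-voom called 2 for the difference between the lines, and fits of the compared groups alone called 1 (PAS) and 10 (controls). Leaving out each library in turn gave 1 to 2 genes for the difference between the lines, with 2 without CDS knockout 4 or PAS knockout 4, and 15 to 43 for the controls, with 15 without PAS control 1. Of 660 values of the 10 genes under other settings, 617 kept their sign and their side of the threshold, 2 passed it and 41 changed sign, none of them called in either setting.

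Sign changes on the log2 scale under single settings were -0.000625 for Becn1 (PAS, replicate block), 0.00422 for Nbr1 (PAS, erythroid covariate), and, for the difference between the lines with that covariate, 0.00535 for Nbr1, -0.00601 for Map1lc3a and 0.000448 for Gabarap. Without CDS knockouts 3 and 4 that difference was -0.00151 for Map1lc3a. Ranges that crossed 0 when each library was left out were, in the CDS line, -0.0975 to 0.0424 for Gabarapl2, -0.0294 to 0.0155 for Nbr1, -0.0612 to 0.0141 for Gabarapl1 and -0.0984 to 9.15e-06 for Map1lc3b. In the PAS line they were -0.0147 to 0.0405 for Becn1, -0.0659 to 0.00582 for Wipi1, -0.0205 to 0.0527 for Map1lc3b, -0.0564 to 0.0248 for Nbr1, -0.106 to 0.0686 for Map1lc3a and -0.0132 to 0.17 for Gabarapl1. For the difference between the lines they were -0.052 to 0.123 for Map1lc3a, -0.057 to 0.0231 for Gabarap, -0.0469 to 0.0356 for Nbr1 and -0.0493 to 0.0063 for Becn1, and between the controls -0.0461 to 0.00121 for Sqstm1 and -0.0144 to 0.0658 for Gabarap.

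Deviations of same-numbered libraries from their group means correlated at 0.22, -0.09, 0.14 and -0.01 in the CDS line, over 9923 genes. They correlated at 0.09, -0.65 and -0.34 in the PAS line and at 0.15, -0.35 and 0.27 between the controls. Differently numbered libraries were not correlated for reference, so these values cannot decide whether the replicate numbers pair the samples. With the replicate block 12, 2, 1 and 23 genes were called in the CDS line, the PAS line, the difference between the lines and the controls, and 0 of the 10 in each. At these depths the least precise of the 10 in the PAS line was Gabarapl2, with a 95% interval of 1.07-fold to 1.41-fold.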
